A study of Mus musculus with 6 samples.

Results

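Type 1 conventional dendritic cells (cDC1) were picked out of single-cell RNA sequencing libraries of 6 mice bearing KPCA ovarian tumors. A cell was taken as a cDC1 when it held at least 2 unique molecular identifiers (UMIs, the count of captured RNA molecules) of Xcr1 and Clec9a together and at least 1 UMI of the MHC class II gene H2-Ab1. Cells with more than 5 UMIs of C1qa, C1qb and C1qc together (macrophages), any UMI of Cd3d, Cd3e or Cd3g (T cells) or Cd79a (B cells), or at least 2 UMIs each of Ccr7 and Fscn1 (mature dendritic cells) were left out. This gave 461 cells of 51633 that had at least 250 genes detected and at most 5% mitochondrial UMIs. The members were thus chosen by their own UMIs of these genes, which are given as description only. They were 87 cells in the control library, 128 in 2DG, 67 in 2FF, 83 in aPDL1, 42 in 2DG_aPDL1 and 54 in 2FF_aPDL1.

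All mice were female C57BL/6, aged 6 to 8 weeks at injection, and received KPCA cells, mouse ovarian cancer cells proficient in homologous recombination, in the ovarian bursa. 2DG (2-Deoxy-D-glucose, a glucose and mannose analog that limits branching of N-glycans) was injected at 500 mg/kg from day 9, aPDL1 (an antibody that blocks PD-L1) at 5 mg/kg after day 9, and 2FF (labelled 2F-Peracetyl-Fucose, an inhibitor of fucosylation) was given by gavage to mice whose tumor cells had also been pre-treated with it. The groups 2DG_aPDL1 and 2FF_aPDL1 received both agents, and are called the combinations. Control mice received solvent and rat IgG, and all were sacrificed on day 30. The sample labels name the tissue lymph node and the series title speaks of young and aged mice, whereas the study describes cells of tumors. Each group was 1 mouse and 1 library, so differences between mice, library preparations and treatments cannot be told apart, no test between treatments was made, and the 95% intervals given for single libraries cover counting error only. The control library stands in 3 comparisons and the aPDL1 library in 3, so these comparisons are not independent of each other.

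cDC1 are the dendritic cells specialised in taking up dead cells and showing their antigens on MHC class I to CD8+ T cells, a process called cross-presentation. They grow under FLT3 ligand, depend on the transcription factors IRF8, BATF3 and ID2, find chemokine-secreting T and NK cells through the receptor XCR1, and bind exposed actin of dying cells through CLEC9A. In tumors they are known as a source of CXCL9 and IL-12 and as cells that carry antigen to lymph nodes, where they appear as mature, CCR7+ dendritic cells.

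The genes that chose the cells are the first to show, since all counts rest on them. Xcr1 lies on mouse chromosome 9 (GRCm38, 123852315 to 123862029, minus strand) and Clec9a on chromosome 6 (129408862 to 129424763, plus strand). The 250 bases before the start of each are given below from RefSeq on GRCm38.p6 (chr9:123862030-123862279 and chr6:129408612-129408861), followed by those of 2 further genes of the cDC1 identity list in which a searched motif occurred, Zbtb46, a factor of conventional dendritic cells (chr2:181424389-181424638, minus strand), and Tlr11, a receptor for protozoan profilin (chr14:50357664-50357913, plus strand). Capitals mark the motif, TGACTCA in Zbtb46 and GAAACTGAAA in Tlr11.
Xcr1: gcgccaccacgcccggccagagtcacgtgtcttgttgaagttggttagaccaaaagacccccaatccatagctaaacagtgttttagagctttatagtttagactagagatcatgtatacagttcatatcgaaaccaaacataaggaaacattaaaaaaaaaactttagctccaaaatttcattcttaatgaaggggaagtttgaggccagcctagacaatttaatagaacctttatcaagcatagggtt
Clec9a: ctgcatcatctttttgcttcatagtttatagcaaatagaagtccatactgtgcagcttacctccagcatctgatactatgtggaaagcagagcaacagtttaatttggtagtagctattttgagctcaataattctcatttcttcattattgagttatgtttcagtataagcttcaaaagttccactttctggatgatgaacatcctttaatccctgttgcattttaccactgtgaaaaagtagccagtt
Zbtb46: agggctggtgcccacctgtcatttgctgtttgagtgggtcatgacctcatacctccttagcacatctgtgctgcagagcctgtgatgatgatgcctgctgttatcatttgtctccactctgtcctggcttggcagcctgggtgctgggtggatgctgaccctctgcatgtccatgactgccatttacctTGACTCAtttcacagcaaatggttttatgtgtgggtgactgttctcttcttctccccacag
Tlr11: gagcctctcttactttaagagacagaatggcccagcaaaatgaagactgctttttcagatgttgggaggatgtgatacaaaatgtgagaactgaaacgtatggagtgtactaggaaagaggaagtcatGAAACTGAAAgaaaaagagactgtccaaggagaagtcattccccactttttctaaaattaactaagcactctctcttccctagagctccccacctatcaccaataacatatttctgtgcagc
On both strands, 33 genes (the cDC1 identity list and the genes most above cDC2) were searched for the AP-1 letters TGANTCA, the PU.1-IRF composite (GGAA and GAAA, 2 bases apart) and the interferon response element (GAAA and GAAA, 2 bases apart), and 25 of them matched the RefSeq promoters. AP-1 letters occurred in 2 genes (Zbtb46 and Itgax), the composite in 1 (Gpr33) and the interferon response element in 3 (Tlr11, Ifi205 and Gpr141b), while they occurred in 6.75%, 2.30% and 2.98% of all 32851 promoter windows of that length. A match is a description of the sequence and not a binding site, and the absence of one in Xcr1 and Clec9a says only that these letters were not in the window.

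The rule separated most cells clearly, but its lower edge held cells with genes of other dendritic cells. Xcr1 and Clec9a together had 10 or more UMIs in 246 members, 4 to 9 in 95, 3 in 37 and 2 in 83, and 275 cells that passed every other criterion had 1. Irf8 stood at 2170 CPM (UMI counts of the summed cells, scaled to the same total) in members with 10 or more UMIs and at 1874 with 4 to 9, against 1143 with 2, just inside the limit, and 456 with 1, just outside. Other identity genes had a smaller step at the limit. With 2 against 1 UMIs, Flt3 was at 218 against 118 CPM, Wdfy4 at 817 against 509, Batf3 at 99.5 against 67.4 and Naaa at 363 against 325. Siglech, a receptor of plasmacytoid dendritic cells (pDC), ran the other way, at 3.88 CPM with 10 or more UMIs, 162 with 4 to 9, 439 with 2 and 156 with 1. Irf8 did not separate cDC1 from pDC, as shown further below. Cd209a, a lectin of type 2 dendritic cells (cDC2), was at 1.36 CPM with 10 or more and at 142 with 2. At least 2 UMIs of Siglech or Cd209a were found in 60 members (13.0%), of whom 46 were among the 120 with 2 or 3 UMIs of the 2 rule genes.

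These low-count members were not spread evenly over the libraries. They made up 8.05% of the cDC1 of the control library, 25.8% of 2DG, 17.9% of 2FF, 30.1% of aPDL1, 45.2% of 2DG_aPDL1 and 44.4% of 2FF_aPDL1. The median cDC1 held 21304 UMIs in control, 16845 in 2DG, 14345 in 2FF, 14719 in aPDL1, 11017 in 2DG_aPDL1 and 14285 in 2FF_aPDL1, so depth moved with the groups as well. Many values are therefore also given for the 341 members with at least 4 UMIs of Xcr1 and Clec9a, called the stricter gate. A value given without such a figure may still have moved under it. Both rule genes were detected in 325 members, Clec9a alone in 130 and Xcr1 alone in 6. No cell barcode was a cDC1 in 2 libraries, although 393 barcodes were shared over all pairs of libraries.

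Genes that the rule did not use gave the members the profile of cDC1. Flt3, the receptor for the growth factor FLT3 ligand, was detected in 85.03% of cDC1 (median 15701 UMIs per cell), against 6.65% of B cells (5514 UMIs) and 0.959% of CD8+ T cells (6522 UMIs). With every cell thinned to 2000 UMIs the shares were 37.1%, 2.33% and 0.312%. Flt3 does not separate dendritic cells from each other, as it was also detected in 41.1% of cDC2, 87.3% of mature dendritic cells and 82.4% of pDC. Tlr3, the sensor of double-stranded RNA, was detected in 62.9% of cDC1, 5.25% of cDC2, 0.551% of mature dendritic cells and 1.099% of pDC. Cadm1, an adhesion molecule, was detected in 63.3% of cDC1, 3.07% of cDC2, 6.06% of mature dendritic cells and 27.5% of pDC.

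Levels of these genes were similar in the 6 mice for some and not for others. Flt3 was at 241 CPM in control, 258 in 2DG, 251 in 2FF, 219 in aPDL1, 261 in 2DG_aPDL1 and 339 in 2FF_aPDL1. In the same order Irf8 was at 1830, 2133, 1923, 2236, 1749 and 1650 CPM, and Wdfy4, needed for cross-presentation of cell-bound antigen, at 2006, 2304, 2151, 2353, 2096 and 2158 CPM. Flt3, Irf8 and Wdfy4 thus stayed within narrow ranges, with no library far below the others. Cadm1 was at 1036, 882, 754 and 1057 CPM in the first 4 libraries but at 425 and 313 CPM in 2DG_aPDL1 and 2FF_aPDL1. Itgae, the integrin chain CD103, was at 526, 423, 450 and 427 CPM in the first 4 and at 238 and 257 CPM in these 2. The 2 combination libraries were the lowest for both genes, and they remained so under the stricter gate, with Cadm1 at 595 and 457 CPM against 839 to 1315 and Itgae at 322 and 338 CPM against 465 to 536.

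**Figure D1:**
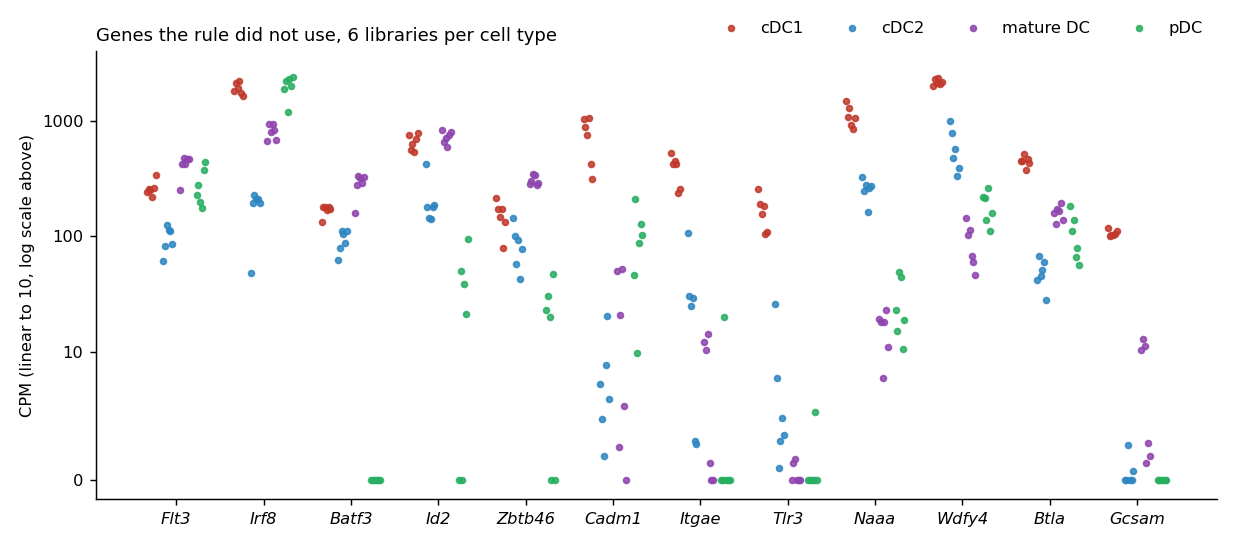
Level of 12 cDC1 genes that the rule did not use, in CPM (linear up to 10, then logarithmic), in cDC1, cDC2, mature dendritic cells and pDC, with 1 point for each of the 6 libraries. Cadm1, Tlr3 and Gcsam were highest in cDC1 in every library, whereas Flt3 and Batf3 were at least as high in mature dendritic cells.

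cDC1 were the scarcest in the 2DG_aPDL1 library and the most frequent in the 2DG library. They were 0.959% of passing cells in control (95% interval 0.769% to 1.18%), 1.66% in 2DG (1.39% to 1.97%), 0.727% in 2FF (0.563% to 0.922%), 0.943% in aPDL1 (0.752% to 1.17%), 0.465% in 2DG_aPDL1 (0.336% to 0.628%) and 0.692% in 2FF_aPDL1 (0.520% to 0.902%). The 2DG interval lay above all others, and that of 2DG_aPDL1 lay below those of control, 2DG and aPDL1. Under the stricter gate the 2DG interval (0.999% to 1.51%) overlapped that of control (0.700% to 1.096%), as it did with cells thinned to 2000 UMIs (0.784% to 1.26% against 0.539% to 0.925%). The share of passing cells also depends on the other cells of a library, of which neutrophils (2490 cells in control, 147 to 248 in the others) and CD8+ T cells (116 in control, 1104 to 1969 in the others) differed most.

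Among dendritic cells alone the order was different. Dendritic cells were divided by gates into cDC1, cDC2 (at least 2 UMIs of Cd209a and at most 1 of Xcr1 and Clec9a together), mature dendritic cells (at least 2 UMIs each of Ccr7 and Fscn1) and pDC (at least 2 UMIs of Siglech and 1 of Ccr9 or Ly6d, with the same limit on Xcr1 and Clec9a). A cell that met the cDC1 rule and also held Cd209a or Siglech was thus counted as cDC1. cDC1 were 40.7% of the 214 cells of the 4 gates in control (34.0% to 47.6%), 38.1% of 336 in 2DG (32.9% to 43.5%), 25.2% of 266 in 2FF (20.1% to 30.9%), 26.1% of 318 in aPDL1 (21.4% to 31.3%), 14.0% of 300 in 2DG_aPDL1 (10.3% to 18.4%) and 21.2% of 255 in 2FF_aPDL1 (16.3% to 26.7%). Control and 2DG stood above the other 4 libraries with no overlap of intervals. Under the stricter gate the shares were 38.6%, 31.4%, 21.7%, 19.8%, 8.19% and 13.0% in that order, and the interval of 2DG (26.2% to 36.9%) overlapped that of 2FF (16.7% to 27.2%). The number of cDC2 was 61 in control, 116 in 2DG, 122 in 2FF, 141 in aPDL1, 200 in 2DG_aPDL1 and 141 in 2FF_aPDL1, fewest in control and most in 2DG_aPDL1. Mature dendritic cells ranged from 37 (2DG_aPDL1) to 77 (aPDL1).

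**Figure D2:**
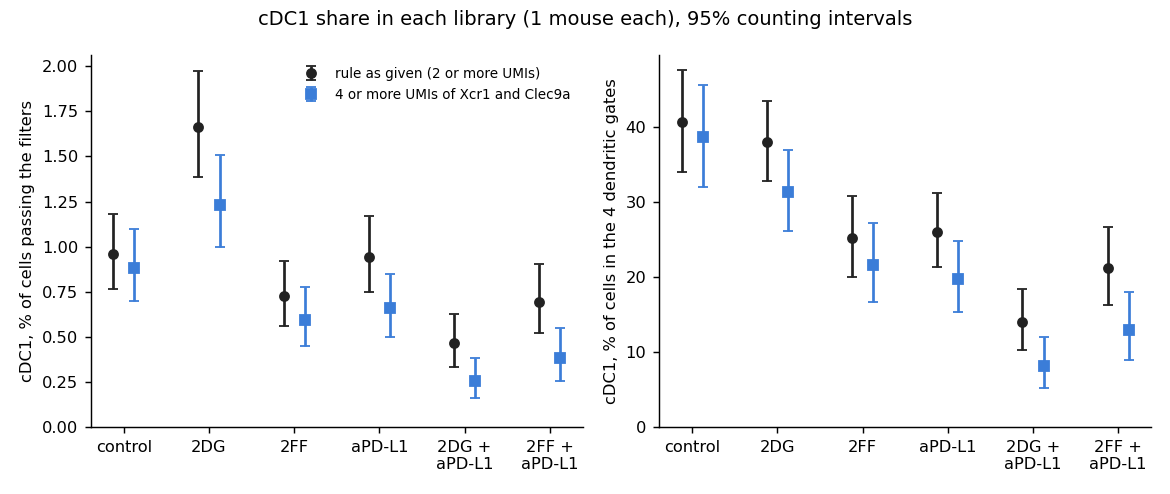
Share of cDC1, in percent, among all passing cells (left) and among the 4 dendritic gates (right) in each library, with 95% counting intervals. Black circles show the rule and blue squares the gate of at least 4 UMIs, and control and 2DG stood highest on the right while 2DG_aPDL1 was lowest on both sides.

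Compared with cDC2 of the same mice, cDC1 were higher in their own identity genes and in cell cycle genes, and lower in interferon-response, costimulation and monocyte genes. With UMIs summed per library and cell type and the library as a block, edgeR's quasi-likelihood test called 1643 of 8549 genes higher in cDC1 (19.2%) and 1786 lower (20.9%) at a Benjamini-Hochberg adjusted p of at most 0.05. The gates were drawn on the same RNA counts, so these calls describe how the gated cells differed and give no independent check of the types. Genes of either gate were left out of all counts. Of the 22 other cDC1 identity genes tested, 21 were higher and 1 lower, with a median log2 fold change of 3.06 against 0.02 over all genes tested. The identity list and the others below were written with results of these data known.

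Among factors that set cDC1 identity, Irf8 was at 1650 to 2236 CPM in cDC1 and 48.2 to 230 CPM in cDC2 over the 6 libraries, with no overlap. Its log2 fold change was 3.39 (SE 0.24, adjusted p = 9.88e-07 by edgeR's quasi-likelihood test). Id2, which blocks the pDC and B cell programme, was higher by a log2 fold change of 1.68 (SE 0.15) and Batf3 by 0.81 (SE 0.11), each in 6 of 6 libraries. cDC2 factors were lower, with log2 fold changes of -2.84 for Irf4 (SE 0.34), -2.33 for Zeb2 (SE 0.20) and -1.12 for Klf4 (SE 0.15). Over 24 dendritic cell transcription factors, 7 were higher and 14 lower, beside 19.2% and 20.9% of all genes tested. The integrin gene Itgax (CD11c) was the identity gene that was lower in cDC1 (log2 fold change -0.48, SE 0.17), and its direction was not shared, with 2 of 6 libraries higher.

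Cadm1 was at 313 to 1057 CPM in cDC1 and 1.83 to 20.5 CPM in cDC2, a log2 fold change of 6.22 (SE 0.38, adjusted p = 3.54e-07 by edgeR's quasi-likelihood test). Gcsam, a germinal-centre signalling adaptor, reached 7.34 (SE 0.37). P3h2, a collagen prolyl hydroxylase, had 626 UMIs in cDC1 against 2 in cDC2, a pooled CPM ratio of 322 with a 95% counting interval of 6.47 to 11.38 on the log2 scale. Dnase1l3, a secreted nuclease that degrades DNA of dead cells, was higher by 4.77 (SE 0.24), and so were the receptors Gpr33 (5.77, SE 0.33), Gpr141b (6.17, SE 0.37), Chrm3 (6.10, SE 0.27) and the fatty-acid receptor Ffar4 (4.57, SE 0.29). Plpp1 (6.15), Serpinb6b (5.48), Bcl2l14 (5.36) and Ccser1 (5.06) completed the 12 highest named genes.

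The 8 lowest named genes were Adgrl3, an adhesion G protein-coupled receptor (log2 fold change -4.81, SE 0.39), Tmem176b (-4.63, SE 0.27) and Tmem176a (-4.58, SE 0.26), cation channels of myeloid cells, Gfra2 (-4.18), Krt80 (-4.06), the mannose receptor Mrc1 (-3.95, SE 0.32), Clec4a3 (-3.85) and Ms4a4c (-3.75). Of the monocyte and macrophage list, 11 of 13 tested genes were likewise lower in cDC1 and none higher (median -1.62), among them the growth factor receptor Csf1r (-2.72, SE 0.28) and the chemokine receptor Ccr2 (-1.57, SE 0.20). Of 9 cDC2 genes tested all 9 were lower, Itgam (CD11b) by -2.88 (SE 0.15) and Sirpa by -2.35 (SE 0.21).

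**Figure D3:**
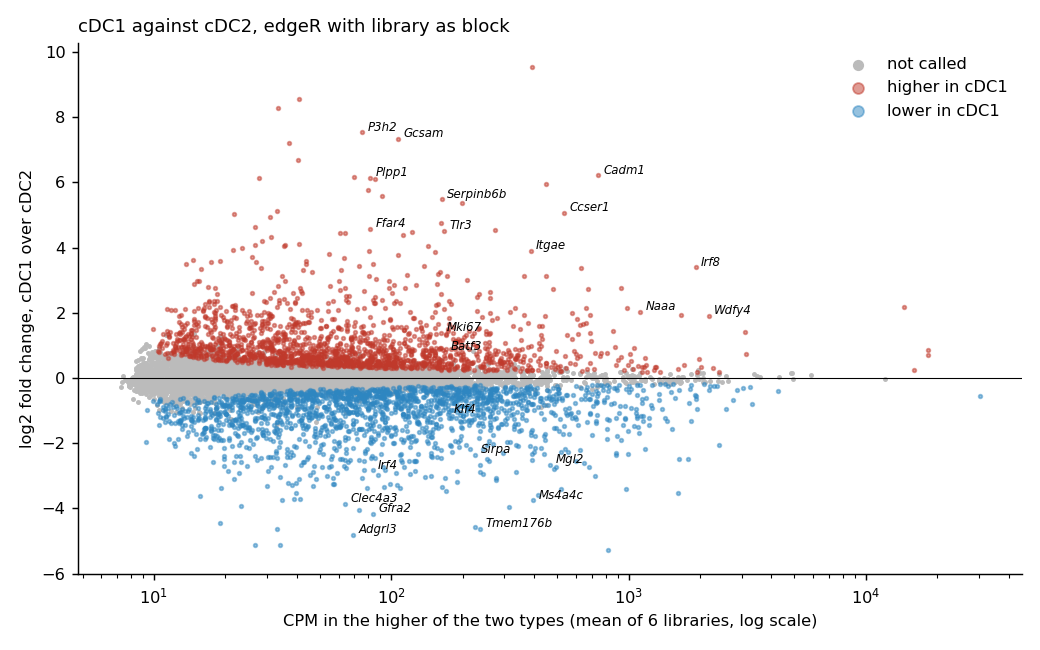
Difference between cDC1 and cDC2 for each gene tested, as the edgeR log2 fold change (vertical) against the mean level in the type where the gene was higher (horizontal, CPM, logarithmic). Red points were called higher in cDC1 (1643 genes beside the unlabelled gate genes), blue points lower (1786) and grey points were not called.

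The presentation machinery differed by part. Of 17 genes of MHC class I presentation, 8 were higher in cDC1 than in cDC2 and 1 lower, and they included the immunoproteasome subunits Psmb9 and Psmb8 and the peptide transporters Tap1 and Tap2. Psmb9 was at 669, 644, 850, 585, 420 and 510 CPM in cDC1 of control, 2DG, 2FF, aPDL1, 2DG_aPDL1 and 2FF_aPDL1, against 179 to 316 CPM in cDC2. Its log2 fold change was 1.35 (SE 0.15, adjusted p = 2.32e-05 by edgeR's quasi-likelihood test), and that of Tap2 0.95 (SE 0.14). The class I chains themselves were not called, with H2-K1 at 0.05 (SE 0.11) and B2m at -0.19 (SE 0.10). Of 18 genes of uptake and cross-presentation, 7 were higher and 6 lower, beside 19.2% and 20.9% of all genes tested. The scavenger receptor Cd36 (3.86, SE 0.30), Wdfy4 (1.90, SE 0.17), the small GTPase Rab43 (1.15, SE 0.13) and the phosphatidylserine receptor Havcr2 (TIM-3; 0.77, SE 0.13) were higher, and the oxidase subunit Cybb (-1.89, SE 0.21) was lower. MHC class II genes showed 2 higher and 3 lower of 12, near the shares of all genes tested (19.2% and 20.9%). Under the stricter gate 4 of these genes were higher.

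Of 19 sensors, 4 were higher and 9 lower in cDC1 than in cDC2, beside 19.2% and 20.9% of all genes tested. The endosomal receptors Tlr3 (4.52, SE 0.29), Tlr12 (4.07, SE 0.41) and Tlr11 (2.98, SE 0.27) were higher. The surface receptors Tlr2 (-2.70, SE 0.26) and Tlr4 (-1.37, SE 0.32) and the cytosolic RNA sensor Ddx58 (RIG-I; -3.24, SE 0.24) were lower. Interferon-stimulated genes were lower in 14 of 18 cases (median -1.54), for instance Ifit3 (-3.33, SE 0.48) and Isg15 (-1.52, SE 0.19), and higher in 1, Oasl1 (1.35, SE 0.17). The interferon-gamma list showed 13 of 19 lower and 1 higher, and 4 higher under the stricter gate or without the 2DG_aPDL1 library. The gene that was higher was Cxcl9, a chemokine that attracts CXCR3+ T cells (0.67, SE 0.15, adjusted p = 3.83e-03 by edgeR's quasi-likelihood test), while its relative Cxcl10 was lower by a log2 fold change of -3.57 (SE 0.13). Cxcl10 was at 10.9 to 72.1 CPM in cDC1 and 104 to 645 CPM in cDC2, without overlap.

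Among T cell-directed signals, costimulatory and checkpoint ligands were mostly lower in cDC1 than in cDC2, and a smaller part of the cytokines and chemokines was. Of all genes tested, 20.9% were lower and 19.2% higher. Of 14 costimulatory and checkpoint ligands, 10 were lower and 1 higher, with Cd80 at -1.21 (SE 0.16), Cd86 at -0.85 (SE 0.08) and Cd274, which encodes PD-L1, at -0.53 (SE 0.11). Of 17 cytokines and chemokines, 8 were lower, including Il1b (-1.78, SE 0.20) and Ccl4 (-1.14, SE 0.21, lower in 5 of 6 libraries), and 2 were higher. Those 2 were Cxcl9 and Il12b, the shared subunit of IL-12 and IL-23. Il12b was at 52.1, 42.6, 40.5, 52.4, 20.3 and 14.4 CPM in cDC1 of control, 2DG, 2FF, aPDL1, 2DG_aPDL1 and 2FF_aPDL1, coming from 5, 11, 5, 8, 3 and 3 cells, whereas cDC2 held none in 5 libraries and 0.701 CPM in 2FF_aPDL1. It was therefore a gene of few cDC1 and nearly no cDC2.

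Signs of other dendritic cells within the gate have to be read beside these values. Of 9 pDC genes tested 5 were higher in cDC1 than in cDC2, and Siglech was at 33.2 CPM in control and 65.1 to 150 CPM in the other libraries, against 1.07 to 27.7 CPM in cDC2. With the 60 members that held at least 2 UMIs of Siglech or Cd209a removed, a setting chosen after seeing the data, 1 pDC gene was called higher, and under the stricter gate 3. The T cell, NK cell, tumor epithelium and lymph node stroma lists had no gene abundant enough to be tested. Summed over its 8 genes the epithelial list was at 3.60 to 15.9 CPM in cDC1 and the lymph node stroma list at 0 to 3.87 CPM, with 5 to 8 of the stroma genes at 0 in each library.

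Cell cycle genes were higher in cDC1 than in the 3 other dendritic types. Of 22 cell cycle genes 21 were higher in cDC1 than in cDC2 and none lower (median log2 fold change 1.54). Mki67, a marker of proliferating cells, was at 198, 188, 197, 138, 159 and 92.5 CPM in cDC1 of control, 2DG, 2FF, aPDL1, 2DG_aPDL1 and 2FF_aPDL1 and at 105, 70.6, 74.1, 35.0, 53.0 and 30.1 CPM in cDC2, so cDC1 were above cDC2 in every mouse. Its log2 fold change was 1.38 (SE 0.13, adjusted p = 6.75e-06 by edgeR's quasi-likelihood test), and that of the topoisomerase Top2a 1.88 (SE 0.24). The replication helicase subunit Mcm3 (1.44, SE 0.21) and the ribonucleotide reductase subunit Rrm2 (1.93, SE 0.33) were higher too. Against mature dendritic cells 19 of 20 such genes were higher, and against pDC 14 of 14. With cells marked as likely doublets removed, 18, 12 and 6 genes were called higher against cDC2, mature dendritic cells and pDC.

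UMIs of both Mki67 and Top2a were found in 31.0% of cDC1 in control (27 of 87, 95% interval 21.5% to 41.9%), 21.9% in 2DG (28 of 128, 15.1% to 30.04%), 22.4% in 2FF (15 of 67, 13.1% to 34.2%), 20.5% in aPDL1 (17 of 83, 12.4% to 30.8%), 11.9% in 2DG_aPDL1 (5 of 42, 3.98% to 25.6%) and 16.7% in 2FF_aPDL1 (9 of 54, 7.92% to 29.3%). The intervals of all 6 libraries overlapped. Cells with both genes were the deeper ones, with a median of 21539 to 24534 UMIs against 10495 to 20511.5 in the other cDC1, and the part of depth in the share was not tested. Under the stricter gate it was 32.5%, 26.3%, 25.5%, 25.9%, 21.7% and 30%, a narrower range. The summed level of the 22 genes was 3012 CPM in control and 1680 to 2408 CPM in the others, and 2278 to 3064 CPM over all libraries under the stricter gate.

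**Figure D4:**
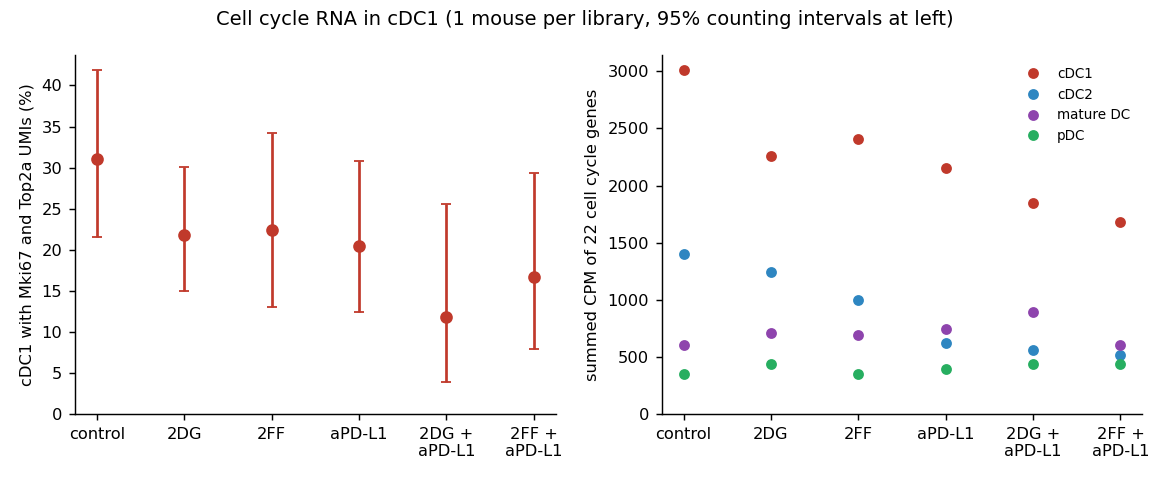
Left, percent of cDC1 with UMIs of both Mki67 and Top2a in each library, with 95% counting intervals, which all overlap. Right, summed CPM of 22 cell cycle genes in cDC1, cDC2, mature dendritic cells and pDC, 1 point per library, with cDC1 above cDC2 in each library.

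Against mature dendritic cells, cDC1 were higher in sensor, ribosomal and protein-folding genes and lower in maturation and costimulation genes. edgeR's quasi-likelihood test called 2284 of 7246 genes higher in cDC1 (31.5%) and 2033 lower (28.1%). All 12 tested genes of the mature list were lower (median -5.17), with Ccl22 at 6.005 to 105 CPM in cDC1 and 871 to 1853 CPM in mature dendritic cells, a log2 fold change of -5.23 (SE 0.35). Costimulatory and checkpoint ligands were lower in 14 of 17 cases (median -1.57). Cd274 was at 252, 427, 512, 485, 274 and 530 CPM in cDC1 of control, 2DG, 2FF, aPDL1, 2DG_aPDL1 and 2FF_aPDL1, and at 1294 to 2528 CPM in mature dendritic cells. The fold change of Cd274 was -2.27 on the log2 scale (SE 0.14, adjusted p = 6.24e-08 by edgeR's quasi-likelihood test), and Cd40 (-2.30, SE 0.25) and Cd80 (-2.64, SE 0.16) were lower by about as much.

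Several cDC1 identity factors were higher in the mature cells. Flt3 (-0.84, SE 0.13), Batf3 (-0.91, SE 0.12), Zbtb46 (-1.20, SE 0.16) and Id2 (-0.32, SE 0.08) were lower in cDC1 than in mature dendritic cells in 6 of 6 libraries, and these were the 4 of 22 identity genes that were lower, while 18 were higher. Irf8 was higher in cDC1 by 1.07 (SE 0.09). NF-kB subunits were lower in cDC1, Relb by -3.23 (SE 0.14) and Nfkb1 by -2.09 (SE 0.10). Tlr3 had 1388 UMIs in cDC1 and 2 in mature dendritic cells, a pooled CPM ratio of 338 with a 95% counting interval of 6.55 to 11.45 on the log2 scale. Naaa, a lysosomal amidase, was higher by 5.95 (SE 0.20), Itgae by 5.73 (SE 0.32) and the lipopolysaccharide co-receptor Cd180 by 5.70 (SE 0.32). The pDC receptor Siglech was also among the 12 highest named genes, at 7.71 (SE 0.44) with 674 UMIs in cDC1 against 1. At least 2 UMIs of Siglech were held by 40 of the 461 members. Chrm3 (7.72), Ctnnd2 (7.35), Ffar4 (6.86), Qpct (6.62), Sept3 (6.40), Mctp2 (6.18) and Cacna1e (6.09) completed these 12. Tmem150c had no UMI in any cDC1 and was at 149 to 213 CPM in mature dendritic cells, which put it at least 458-fold lower in cDC1, counting the floor of 3 UMIs over all cDC1, and the lipid carrier Fabp4 was at least 307-fold lower.

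Several functional groups differed as well. Genes of the endoplasmic reticulum stress response, which fold and export proteins, were higher in cDC1 than in mature dendritic cells in 11 of 15 cases and lower in 1, with Calr at 2.08 (SE 0.10), Hspa5 at 1.88 (SE 0.17) and Creld2 at 3.22 (SE 0.24). The dissociation and stress list, which holds heat-shock chaperones such as Hspa1a, was higher too in 11 of 19 cases and lower in 4, and its part in these values was not tested. Sensors were higher in 8 of 12 cases and lower in 1, and ribosomal protein genes in 41 of 64 against 2. MHC class I genes were lower in 8 of 17 cases and higher in 3, H2-K1 by -1.01 (SE 0.12) and B2m by -1.09 (SE 0.09), whereas MHC class II genes were higher in 6 of 12 and lower in 3. Of the cytokines and chemokines 10 of 16 were lower, including Il12b (-2.81, SE 0.22) and Il15 (-2.80, SE 0.25), and 3 were higher, including Cxcl9 (1.23, SE 0.21) and Ccl4 (1.91, SE 0.35). Of genes that answer interferon-gamma, 5 of 18 were higher and 7 lower, beside 31.5% and 28.1% of all genes tested. Glycolysis genes were higher in 8 of 17 cases and lower in 2.

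Against pDC, cDC1 were higher in MHC class II, costimulation, interferon-gamma, glycolysis and ribosomal genes, and lower in pDC genes. The 2FF library had 9 pDC and was left out, so 5 libraries entered the test. edgeR's quasi-likelihood test called 1157 of 5389 genes higher in cDC1 (21.5%) and 1131 lower (21%). Flt3 (log2 fold change -0.09, SE 0.18) and Irf8 (-0.12, SE 0.11) were not called. Of 19 identity genes 17 were higher and none lower. Batf3 was at 132 to 179 CPM in cDC1 and had no UMI in pDC of any library, at least 41.6-fold higher against the floor of 3 UMIs, and Itgae was at least 106-fold and Ccser1 at least 137-fold higher by the same floor in the 5 libraries tested. Id2 was higher by 4.05 (SE 0.33). All 8 pDC genes tested were lower, Tcf4, the factor that drives pDC, by -3.86 (SE 0.29) and Runx2 by -3.52 (SE 0.39), and the RNA sensor Tlr7 was lower by -3.85 (SE 0.48).

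In functional terms, MHC class II genes were higher than in pDC in 8 of 11 cases and lower in 1 (median 2.19), with Ciita, their activator, at 3.17 (SE 0.32). For this and the groups that follow, 21.5% of all genes tested were higher and 21% lower. Costimulatory and checkpoint ligands were higher in 7 of 10 and lower in 1, Lgals9, with Cd80 higher by 3.02 (SE 0.31) and Cd274 by 2.53 (SE 0.29). Genes that answer interferon-gamma were higher in 9 of 12 cases and none was lower (median 1.14). Glycolysis genes were higher in 13 of 17 and lower in 1, with Ldha higher by 1.49 (SE 0.17). Cxcl9 was higher by 6.33 (SE 0.43) and Kit, the receptor of stem cell factor, by 4.64 (SE 0.43), whereas Ccl4 was lower by -1.89 (SE 0.30) and Mgat5, a branching enzyme of N-glycans, by -1.59 (SE 0.23). Ribosomal protein genes were higher in 46 of 64 and none was lower. The pDC numbered 91 in all, so low genes could not be tested in them.

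Between treatments, the cDC1 of each mouse were compared as sums, and a gene was counted when its ratio of CPM + 10 passed 2-fold, for genes that had 50 UMIs or more summed over both libraries. Against control, 84 of 7347 genes were at least 2-fold higher in 2DG (1.14%) and 81 lower (1.1%). In 2FF 86 of 6464 were higher (1.33%) and 110 lower (1.7%), and in aPDL1 119 of 6695 were higher (1.78%) and 89 lower (1.33%). Against aPDL1, 98 of 5273 were higher in 2DG_aPDL1 (1.86%) and 148 lower (2.81%), and in 2FF_aPDL1 91 of 5635 were higher (1.61%) and 102 lower (1.81%). The median log2 ratio of all genes was 0.04, 0.05, 0.04, 0.01 and -0.00 in these 5 comparisons. With ratios centred on that median, 75 genes were higher and 130 lower in 2FF.

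Several chemokines differed between the libraries. Cxcl9 was at 317 CPM in control (95% interval 291 to 344), 517 in 2DG (486 to 549), 587 in 2FF (541 to 635), 1129 in aPDL1 (1071 to 1189), 569 in 2DG_aPDL1 (508 to 637) and 634 in 2FF_aPDL1 (581 to 691). Control was lowest and aPDL1 alone highest, with no overlap of either interval with another library. It was detected in 46 of 87, 75 of 128, 40 of 67, 49 of 83, 22 of 42 and 33 of 54 cDC1, in that order. In cDC2 Cxcl9 was also lowest in control (175 CPM) and at 321 to 512 CPM in the others.

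Ccl17, a ligand of CCR4 on regulatory and helper T cells, was at 337 CPM in control (311 to 366), 461 in 2DG (432 to 491), 161 in 2FF (138 to 187), 738 in aPDL1 (691 to 787), 9.24 in 2DG_aPDL1 (3.001 to 21.6) and 12.01 in 2FF_aPDL1 (5.76 to 22.1). Both combination libraries were thus far below the 4 others. It was detected in 29 of 83 cDC1 of aPDL1, 3 of 42 of 2DG_aPDL1 and 4 of 54 of 2FF_aPDL1, and its log2 ratio of CPM + 10 over aPDL1 was -5.28 and -5.09. The stricter gate gave -4.93 and -4.69. Ccl22, another CCR4 ligand, was at 28.6, 105, 26.4, 100, 9.24 and 6.005 CPM in the same order of libraries, again lowest in the combinations. Of its aPDL1 UMIs 39.7% came from 1 cell. Its log2 ratio of 2FF_aPDL1 over aPDL1 was -2.78, and -1.72 with doublets removed. cDC2 had Ccl17 at 1260 CPM in control and at 114 to 550 CPM in the others, with 116 and 170 CPM in the combinations, and mature dendritic cells at 495 to 1296 CPM.

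Ccl4, a chemokine, ran the other way, with 135 CPM in aPDL1, 1009 in 2DG_aPDL1 (926 to 1098) and 381 in 2FF_aPDL1 (340 to 425), against 123 in control, 141 in 2DG and 150 in 2FF. Its log2 ratio over aPDL1 was 2.81 in 2DG_aPDL1, where 28 of 42 cDC1 held it against 28 of 83. The NK cell list was at 316 CPM in the same library, led by Gzma, and at 2.29 to 23.6 CPM in the other 5 libraries, and 1 of the 42 cDC1 of 2DG_aPDL1 also met the NK cell gate. The part of such cells in the Ccl4 value was not tested. Ccl4 was also higher in 2DG_aPDL1 than in aPDL1 in CD8+ T cells (2127 against 1108 CPM), and in cDC2 (969 against 230 CPM), of which 3 in 2DG_aPDL1 met the NK cell gate. pDC were higher in Ccl4 than cDC1, and with the members holding Siglech or Cd209a removed the ratio was 2.88.

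As a group, 13 of 16 T cell-directed cytokines and chemokines were above control in aPDL1 (median log2 ratio 0.45, 5 of them at least 2-fold higher and 1 lower), where 54.7% of all genes were above control, 1.78% at least 2-fold higher and 1.33% lower. Under the stricter gate 9 of 14 were above control, with a median of 0.20. In 2DG_aPDL1 8 of 11 were below aPDL1 (median -0.83), with 3 at least 2-fold higher and 3 lower, beside 1.86% and 2.81% of all genes. In 2FF_aPDL1 8 of 12 were below (median -0.67), with 2 at least 2-fold higher and 3 lower, beside 1.61% and 1.81%. The members past 2-fold thus went both ways in both combinations. Their summed level was 1548 CPM in control, 1904 in 2DG, 1961 in 2FF, 3105 in aPDL1, 2566 in 2DG_aPDL1 and 2224 in 2FF_aPDL1. Over control the medians of 2DG (-0.04) and 2FF (0.02) stayed near that of all genes. Il15, a survival factor of CD8+ T and NK cells, was highest in control at 54.4 CPM and lowest in the combinations at 12.9 and 10.8 CPM.

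**Figure D5:**
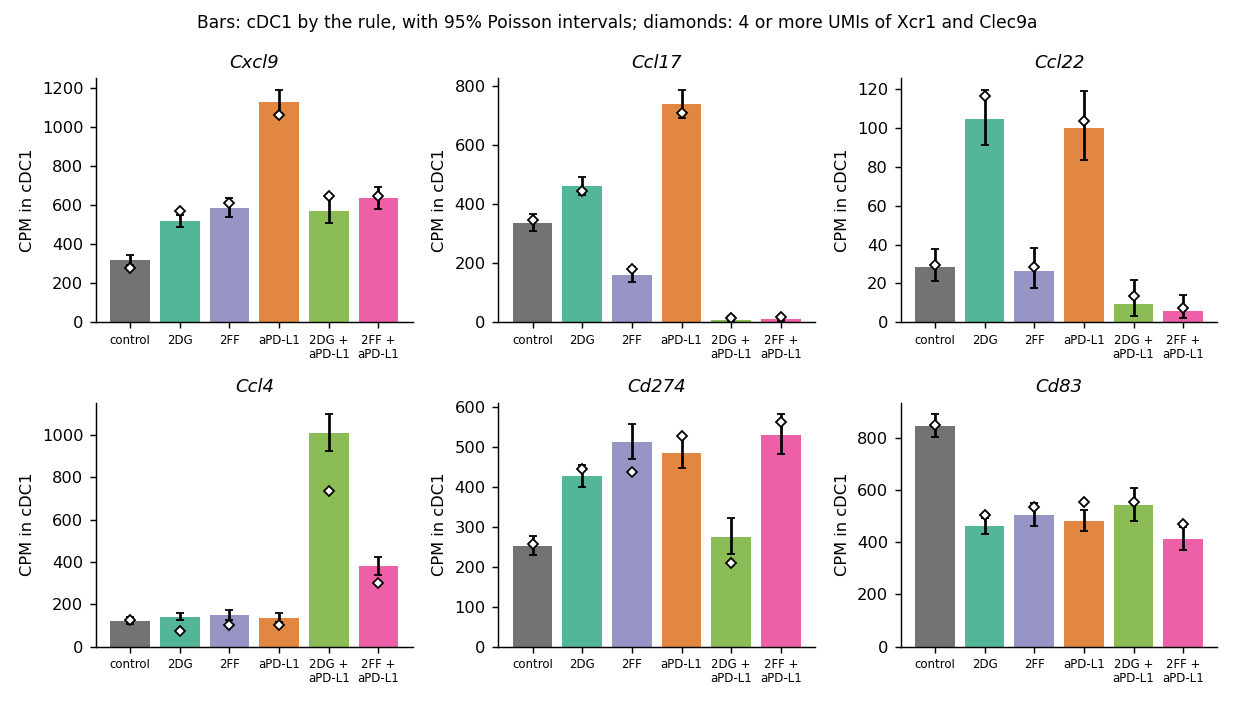
Level of Cxcl9, Ccl17, Ccl22, Ccl4, Cd274 and Cd83 in cDC1 of each library in CPM, as bars from 0 with 95% counting intervals, and under the gate of at least 4 UMIs as diamonds. Cxcl9 was highest in aPDL1, Ccl17 and Ccl22 were lowest in the 2 combination libraries and Ccl4 was highest in 2DG_aPDL1.

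Most interferon-gamma response genes were above control in the aPDL1 library. Of 17 measured, 14 were above control (median log2 ratio 0.80, and 0.79 under the stricter gate) and 5 were at least 2-fold higher, beside 1.78% of all genes. In 2DG 10 of 17 were above control (median 0.24) and in 2FF 12 of 16 (0.39). Under the stricter gate 11 of 14 were above control in 2FF, with a median of 0.21. Of all genes, 54.7% were above control in aPDL1, 55.9% in 2DG and 55.5% in 2FF. In 2DG_aPDL1 14 of 15 were below aPDL1 (median -0.80) with 4 at least 2-fold lower, beside 2.81% of all genes. Under the stricter gate 11 of 13 were below (median -0.59). In 2FF_aPDL1 7 were above aPDL1 and 9 below (median -0.11), and 8 above and 6 below under the stricter gate (median 0.21). Serpina3g, a serine protease inhibitor, was at 245, 214, 157, 441, 49.9 and 173 CPM in control, 2DG, 2FF, aPDL1, 2DG_aPDL1 and 2FF_aPDL1. The guanylate-binding gene Gbp2 was at 63.6, 82.8, 111, 167, 98.0 and 120 CPM, also highest in aPDL1 and lowest in control. cDC2 of the same mice had list medians of 1.06 in 2DG, 1.04 in 2FF and 1.15 in aPDL1 over control, and of 0.27 and 0.29 in the combinations over aPDL1.

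Checkpoint and costimulatory ligands gave smaller differences. Cd274 was lowest in control (252 CPM) and 2DG_aPDL1 (274) and at 427 to 530 CPM in the other 4 libraries. Pdcd1lg2, which encodes PD-L2, was at 84.2 CPM in control, 120 in 2DG, 268 in 2FF, 219 in aPDL1, 188 in 2DG_aPDL1 and 209 in 2FF_aPDL1. Control was the lowest library for both PD-1 ligands, and for Cd80 (73.9 against 123 to 218 CPM), Cd86 (432 against 492 to 597) and Cd40 (24.0 against 42.5 to 104). Cd83, which stabilises MHC class II at the surface, went the other way, with 846 CPM in control (803 to 890) and 413 to 542 CPM elsewhere. Of 12 members, 6 were below control in 2DG, 3 in 2FF and 4 in aPDL1, where 55.9%, 55.5% and 54.7% of all genes were above control. The medians of the list over control were 0.09 in 2DG, 0.33 in 2FF and 0.41 in aPDL1, and over aPDL1 -0.05 and 0.02 in the combinations.

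MHC genes differed by less than 2-fold in most cases. MHC class II genes were below aPDL1 in 11 of 13 cases in each combination library (medians -0.39 and -0.39, and -0.36 and -0.26 under the stricter gate), where 50.5% of all genes were above aPDL1 in 2DG_aPDL1 and 49.8% in 2FF_aPDL1. Their invariant chain Cd74 was at 13287, 12338, 13578 and 13299 CPM in control, 2DG, 2FF and aPDL1 and at 10155 and 9932 CPM in the combinations, below all 4. MHC class I genes were above control in 16 of 17 cases in 2FF (median 0.34), none by 2-fold. Psmb9 was highest in 2FF (850 CPM) and lowest in 2DG_aPDL1 (420).

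Both inhibitors act on sugar metabolism, so the genes of glycolysis and glycan synthesis were compared as well. Glycolysis genes were above control in 16 of 17 cases in 2FF (median 0.62, and 0.56 under the stricter gate), 10 of 17 in 2DG (median 0.05) and 14 of 17 in aPDL1 (0.26), where 55.5%, 55.9% and 54.7% of all genes were above control. They were below aPDL1 in 15 of 17 cases in 2DG_aPDL1 (-0.51, and -0.31 under the stricter gate). In 2FF_aPDL1 6 were above aPDL1 and 11 below (median -0.02), and 13 above and 3 below under the stricter gate (0.20). Tpi1 was at 226, 217, 393, 302, 128 and 267 CPM in control, 2DG, 2FF, aPDL1, 2DG_aPDL1 and 2FF_aPDL1, and Pkm at 368, 418, 659, 494, 340 and 490 CPM. 2FF was highest and 2DG_aPDL1 lowest for both of these enzymes. In the 2DG library, where the glucose analog was given alone, both lay near control.

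Among glycan enzymes, Mgat5 was at 42.9 CPM in control, 91.5 in 2DG, 71.7 in 2FF, 92.8 in aPDL1, 111 in 2DG_aPDL1 and 79.3 in 2FF_aPDL1, lowest in control. Fut8, the enzyme of core fucosylation, was at 88.2, 85.7, 75.4, 88.9, 64.7 and 80.5 CPM in the same order. The sialyltransferase St6gal1 was at 143 CPM in control, 101 in 2DG, 76.4 in 2FF, 139 in aPDL1, 44.4 in 2DG_aPDL1 and 51.6 in 2FF_aPDL1. Fut8 varied little, whereas St6gal1 was lowest in the combinations. pDC were higher in Mgat5 than cDC1, and the summed pDC list was likewise lowest in control (403 CPM) and highest in 2DG_aPDL1 (1584 CPM). The part of such cells in the Mgat5 values was not tested. The glycan enzyme list as a whole had medians of -0.04, 0.04 and 0.13 over control and -0.28 and -0.12 over aPDL1, where the stricter gate gave 0.12 and -0.16. Mgat3 had UMIs in 1 cDC1 and Fut9 in none, so neither could be compared at this depth. Between cDC1 and cDC2, 4 of 14 glycan enzymes were higher and 3 lower, beside 19.2% and 20.9% of all genes tested.

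Some of the largest ratios came from few cells or from genes of other cell types. S100a8, S100a9 and Cxcl3, genes abundant in neutrophils, were among the 5 furthest below control in each of the 3 single treatments. S100a9 was at 1688 CPM in control and 2.40 to 133 CPM in the others, but 73.0% of its control UMIs came from 1 cell, and 78.1% of those of S100a8. With doublets removed its log2 ratio over control was -4.48 in 2DG, -2.54 in 2FF and -3.44 in aPDL1. S100a9 was also higher in control than in these 3 in cDC2 (1198 against 2.74 to 41.2 CPM), pDC (68.7 against 0 to 5.50) and CD8+ T cells (817 against 27.8 to 120). In neutrophils it was not (24762 against 24884 to 47880). The summed neutrophil list was at 3277 CPM in control cDC1 and 180 to 656 CPM in the others, and 7 of the 87 control cDC1 also met the neutrophil gate.

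The genes furthest above control in 2DG were Prkca, Blnk, Ly6d, Grm8 and Mctp2, with log2 ratios of 3.18, 2.72, 2.63, 2.35 and 2.32. With members holding Siglech or Cd209a removed they were 0.30, 0.00, 0.00, -0.01 and -0.40. The summed pDC list was at 403 CPM in control and 977 to 1584 CPM in the other libraries, led by Tcf4 there, and at 252 to 390 CPM in all 6 with those members removed. Rsad2, an interferon-induced gene, was above control in aPDL1 by 2.40, with 78.2% of its UMIs from 1 cell, and S100a4 above control in 2FF by 2.04, with 65.8% from 1 cell and -0.31 under the stricter gate. Vdr, the vitamin D receptor, was carried by more cells, 21 of 67 in 2FF against 8 of 87 in control, at 109 and 13.7 CPM (log2 ratio 2.33, and 1.60 under the stricter gate). Ifitm2, an antiviral membrane protein, was at 210 CPM in control and 760 in 2FF, from 56 of 87 and 54 of 67 cells. Neither difference was particular to cDC1. In cDC2 of 2FF against control Vdr was at 336 against 115 CPM and Ifitm2 at 1651 against 317 CPM. Both genes were also higher in 2FF in pDC, neutrophils and CD8+ T cells.

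Among the genes furthest from aPDL1 in the combinations, some again rested on few cells. Fn1, which encodes fibronectin, was lower in 2DG_aPDL1 by -3.13 on the log2 scale (3 of 42 cells against 12 of 83), but 77.4% of its aPDL1 UMIs came from 1 cell, and the value was -0.95 under the stricter gate and -0.27 with doublets removed. Cxcl2, a neutrophil-attracting chemokine, was higher by 2.62, with 60.5% of its UMIs from 1 cell. The value was 3.71 under the stricter gate, 3.24 with each cell weighted alike and 2.31 with doublets removed. In 2DG_aPDL1 Serpina3g was lower by -2.91 on the log2 scale (11 of 42 cells against 51 of 83), as was Axl, a receptor for dead cells, by -2.58 (1 of 42 against 30 of 83). Stat4, a transcription factor of IL-12 signalling, was higher by 2.53 (13 of 42 against 8 of 83). Stat4 was also higher in cDC2 (210 against 79.7 CPM), pDC (148 against 49.5) and CD8+ T cells (801 against 397), but not in neutrophils (132 against 152). The NK cell list was at 316 CPM in cDC1 of 2DG_aPDL1 and 15.9 CPM in those of aPDL1. The part of other cells in the Stat4 value was not tested. Zfp36, which destabilises cytokine mRNA, was higher than in aPDL1 in both combinations, by 2.02 and 2.13, and was at 408 CPM in control, 247 in 2DG, 456 in 2FF, 144 in aPDL1, 614 in 2DG_aPDL1 and 663 in 2FF_aPDL1, so aPDL1 was its lowest library. Zfp36 belongs to the dissociation and stress list, of which 6 of 19 genes were at least 2-fold higher and 2 lower than in aPDL1 in 2DG_aPDL1 (median 0.13, beside 1.86% and 2.81% of all genes), and 4 higher and 1 lower in 2FF_aPDL1 (median -0.05, beside 1.61% and 1.81%). It was higher in cDC2 as well (405 CPM in aPDL1, 1082 and 1199 CPM in the combinations), and in CD8+ T cells (62.3, 153 and 159 CPM), and the part of stress in the Zfp36 values was not tested. Ctla4 (1.87) and Il1rap, a co-receptor of IL-1 (1.90), were higher in 2FF_aPDL1, and Cyp26b1, which degrades retinoic acid, was lower (-2.13, 2 of 54 cells against 10 of 83, with 59.4% of its aPDL1 UMIs from 1 cell). Ctla4 was at 76.7, 27.1, 50.9, 16.7, 98.0 and 87.7 CPM over the 6 libraries, so here too aPDL1 was lowest.

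Genes of dissociation and cellular stress were mostly below control in the 3 single treatments. Their summed level was 11928 CPM in control and 7026 to 9611 CPM in the others. They were below control in 18 of 19 cases in 2DG (median -0.70), 15 of 20 in 2FF (-0.48) and 16 of 19 in aPDL1 (-0.63). Of all genes, 55.9%, 55.5% and 54.7% were above control. Of the list, 6, 7 and 7 genes were at least 2-fold lower, beside 1.1%, 1.7% and 1.33% of all genes. Hspa1a, a heat-shock chaperone, was at 890 CPM in control and at 289, 214, 209, 37.0 and 195 CPM in 2DG, 2FF, aPDL1, 2DG_aPDL1 and 2FF_aPDL1. The immediate-early gene Fos was at 949, 607, 701, 608, 1285 and 872 CPM, so the 2 did not follow each other in 2DG_aPDL1. The part of this list in the differences from control was not tested. Between cell types, 14 of 19 of these genes were lower in cDC1 than in cDC2 and 1 higher (20.9% and 19.2% of all genes tested). Against mature dendritic cells 11 of 19 were higher and 4 lower (31.5% and 28.1%). Against pDC 5 of 19 were higher and 3 lower, near the shares of all genes tested (21.5% and 21%).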

How the data were processed

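Single cells of 6 mice were captured with the Chromium Next GEM 3' chemistry. For 32285 genes and 57078 barcodes the authors deposited raw counts of UMIs, not normalized, made on mm10 with Cell Ranger 7.0.0 per the file headers (the submitters' processing notes name 3.1.0). Between 61859753 and 73885214 UMIs were counted per library, and between 541025 and 2065641 in cDC1. Cells were filtered and gated on raw UMIs as stated, and the study's own cell names were not used. Counts were summed per library and type. Types were compared with edgeR 4.0.16 (R 4.3.3; TMM, low-count filter, quasi-likelihood test, library as block, Benjamini-Hochberg at 0.05), tested on simulated data, with DESeq2 1.42.0 as an alternative. Libraries were compared by the log2 ratio of CPM + 10 without a test, which understates changes of low genes, and intervals (95%, exact Poisson, binomial or Clopper-Pearson) cover counting error only. Likely doublets (0.8% per 1000 cells, 30 neighbours) were kept and removed in an alternative. Between types, named genes were drawn from the 12 highest and 8 lowest called genes with 1 direction in every library and at least 50 CPM. Between libraries they were drawn from the 5 highest and 5 lowest with UMIs in at least 10 cells. Members of the gene lists were named too. Left out were gate, mitochondrial, ribosomal protein, receptor-chain and haemoglobin genes, Xist and unnamed gene models. Members and lists were chosen with earlier results of these data known. The 1 library of a group is 1 mouse.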

Additional observations from a re-analysis of the deposited data

How the results depend on the processing

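With 1 mouse a group, no treatment effect was tested, and the 541025 UMIs of cDC1 in 2DG_aPDL1, the fewest, limit what can be read from its low genes. A fit of aPDL1 over the 6 libraries with the inhibitor as a block was not run, and the labels give no replicate numbers. The comparisons between cell types have the library as a block, and without it 1447 genes were higher and 1538 lower than in cDC2, 2211 and 1992 than in mature dendritic cells, and 1176 and 1157 than in pDC. Leaving out 1 library at a time gave 1323 to 1604 higher and 1535 to 1799 lower than in cDC2, 1993 to 2269 and 1845 to 2046 than in mature dendritic cells, and 898 to 1144 and 938 to 1114 than in pDC. DESeq2 called 1280 and 1637, 2310 and 2192, and 1261 and 1128. Against pDC with no low-count filter, 2124 of 17449 genes tested were higher and 1138 lower, so only the higher count moved. The 60 named genes of these comparisons kept their direction and call in all 809 repeats in which they could be tested. Not all could be tested in every setting. Under the stricter gate 55 were tested, with members holding Siglech or Cd209a removed 56, and with doublets removed 58.

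The share of passing cells was 1.23% in 2DG, 0.659% in aPDL1, 0.255% in 2DG_aPDL1 and 0.384% in 2FF_aPDL1 under the stricter gate of 4 UMIs, and with cells thinned to 2000 UMIs it was 0.713% in control, 1.001% in 2DG, 0.421% in 2FF, 0.469% in aPDL1, 0.140% in 2DG_aPDL1 and 0.191% in 2FF_aPDL1. The share of the 4 dendritic gates was 31.4%, 19.8%, 8.19% and 13.0% in 2DG, aPDL1, 2DG_aPDL1 and 2FF_aPDL1 under the stricter gate, and 57.1% in control, 7.45% in 2DG_aPDL1 and 12.1% in 2FF_aPDL1 when thinned. Counts of genes past 2-fold depend on the pseudocount. With 1 CPM, 167 were higher and 147 lower in 2DG, 146 and 220 in 2FF, 213 and 179 in aPDL1, and 140 and 186 in 2FF_aPDL1. With 50 CPM they were 12 and 27, 25 and 30, 29 and 25, 38 and 34 in 2DG_aPDL1, and 30 and 20 in 2FF_aPDL1. With at least 20 UMIs, 138 were higher in 2FF, 168 and 237 higher and lower in 2DG_aPDL1, and 171 lower in 2FF_aPDL1. With each cell weighted alike 146 were higher in 2FF. Under the stricter gate 43 were higher in 2DG, 45 in 2FF and 68 in aPDL1, and with the members holding Siglech or Cd209a removed (chosen after seeing the data) 35 were higher in 2DG.

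Of the list medians past 2-fold, that of the pDC list in 2DG over control turned its sign (1.56, and -0.29 with those members removed). Medians nearer 0 changed sign too, for instance under the stricter gate those of the cDC2 list in 2DG over control (0.64 to -0.76, then of 3 genes), of the monocyte and macrophage list (-0.51 to 0.53, then of 4 genes) and the cell cycle list (-0.14 to 0.19) in 2DG_aPDL1 over aPDL1, and of the interferon-gamma (-0.11 to 0.21) and glycolysis lists (-0.02 to 0.20) in 2FF_aPDL1 over aPDL1. Of 400 repeats of single genes 298 were marked as the same, 98 as moved and 4 as changed in sign. These 4 were Grm8 (-0.014) and Mctp2 (-0.40) in 2DG with those members removed, S100a4 (-0.31) in 2FF under the stricter gate and Ngp (0.66) in aPDL1 with doublets removed. The cause was not tested.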

Other observations

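Receptors for growth, chemokines and cytokines separated cDC1 from cDC2, beside the groups described above. Of 20 tested, 3 were higher in cDC1 and 14 lower (19.2% and 20.9% of all genes tested) by edgeR's quasi-likelihood test. Kit, the receptor of stem cell factor, was among the higher ones (log2 fold change 1.36, SE 0.27, 6 of 6 libraries). Against mature dendritic cells 8 of 19 were higher and 8 lower (31.5% and 28.1% of all genes tested). Ifngr1, a chain of the interferon-gamma receptor, was higher by 1.24 (SE 0.15). Genes of glycolysis were balanced between cDC1 and cDC2, with 5 of 18 higher and 5 lower, Hk3 at 1.01 (SE 0.23) and Hk2 at -0.87 (SE 0.15), 2 forms of the enzyme that starts glucose breakdown.

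Interferon-stimulated genes were above control in 8 of 9 cases in the cDC1 of 2FF (median log2 ratio 0.73). Under the stricter gate of 4 UMIs 5 of 8 were above control there (0.18). They were above aPDL1 in 9 of 10 cases in the cDC1 of 2FF_aPDL1 (0.50), and in 8 of 9 under the stricter gate (0.71). Of all genes, 55.5% and 49.8% were above in these comparisons, and 53.8% and 50.4% under the stricter gate. Over control the medians were -0.03 in 2DG and 0.07 in aPDL1. In all of these 1 mouse stood for each group, and no test was made. Genes of endoplasmic reticulum stress were above control in 11 of 15 cases in 2DG (median 0.25), 12 of 15 in 2FF (0.34) and 13 of 15 in aPDL1 (0.18, and 0.35 under the stricter gate with 10 of 14), beside 55.9%, 55.5% and 54.7% of all genes.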
